A study of Mus musculus with 2 samples.

Results

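The genes described here encode the proton pump of the lysosome and a set of lysosomal membrane proteins, lumenal proteins and transcription factors. They were chosen by symbol: 33 listed symbols were matched to the gene names carried by the deposited transcript tables, and all 33 matched 1 protein-coding gene each. They are 33 of 55536 annotated genes, of which 22028 are protein coding. Of the 33, 8 encode subunits of the membrane-embedded V0 sector of the pump and 8 encode subunits of the cytosolic V1 sector. A further 2 encode accessory subunits, 6 encode membrane proteins, 6 encode proteins of the lysosome lumen and 3 encode transcription factors of the microphthalmia (MiT) family.

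The cells were macrophages grown from bone marrow of C57BL/6J mice, as primary cells of unrecorded sex and age. Both samples belonged to 1 group. They had been exposed to lipid A, the part of lipopolysaccharide that Toll-like receptor 4 recognises, at 100 ng/ml over 12 h, kept without it for 12 h after a wash, and exposed a second time to 100 ng/ml for 75 min before harvest. RNA of the chromatin fraction was sequenced after removal of ribosomal RNA, from 250 ng in replicate 1 and 500 ng in replicate 2. Cells that had received lipid A once or never were not analysed here, so every value below is a level in restimulated cells and none is a response. Both samples carry the same donor entry and the labels do not say that they came from separate cultures, so the spread between them may be technical.

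The vacuolar ATPase (V-ATPase) uses ATP hydrolysed by V1 to rotate a ring of V0 subunits, which carries protons into the lysosome and so provides the low pH that its hydrolases need. Macrophages rely on this compartment to degrade what they engulf. The MiT factors Tfeb, Tfe3 and Mitf bind E-box motifs in promoters of many lysosomal genes, and nutrient signalling at the lysosome surface controls how much of each factor enters the nucleus. Chromatin-bound RNA holds transcripts in the course of synthesis, among them molecules whose introns have not been removed.

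Replicate 1 held 18445009 expected counts and replicate 2 held 17686824, of which 18388793 and 17640464 lay on annotated genes. Levels are given in TPM, transcripts per 1e6 with read counts divided by transcript length. All 10 macrophage markers were at or above 1 TPM in each library, with a summed level of 1281 TPM for replicate 1 and 913 TPM for replicate 2. Of 9 osteoclast markers, 2 reached 1 TPM in both libraries: Acp5 (1.91 and 3.77 TPM) and Nfatc1 (3.39 and 3.95 TPM). Itgb3 had 25 and 9 counts, Ctsk, Ocstamp and Mmp9 had at most 2 counts per library, and Calcr, Oscar and Dcstamp had 0. None of the 5 melanocyte, 5 mast cell, 6 neutrophil, 4 B cell, 4 T cell, 3 dendritic cell or 4 fibroblast markers reached 1 TPM in both libraries, and of 4 erythroid markers Alas2 alone did. In the alignment-free table, however, Cd3d (15.5 and 20.1 TPM), Cd8a, Dct, Mpo, Cxcr2, Ms4a1, Zbtb46, Col1a1 and the osteoclast marker Ocstamp (5.98 and 7.02 TPM) also passed 1 TPM in both libraries. The lists of osteoclast and melanocyte markers matter here because Tcirg1, Atp6v0d2 and Mitf are also known from those cells.

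Of the 33 genes, 32 lay at 1 TPM or more in each library, where 40.1% of all protein-coding genes did so. At least 10 TPM was reached by 28, against 17.9% of protein-coding genes, and at least 100 TPM by 6, against 2.04%. Their median level was 38.5 ± 6.89 TPM (SD between the medians of the libraries, n = 2), while protein-coding genes at 1 TPM in both libraries had a median of 9.37 TPM. The lumenal proteins had the highest group median (64.3 ± 4.96 TPM), followed by V1 (46.1 ± 3.29), the membrane proteins (37.8 ± 9.19), V0 (33.6 ± 0.923), the MiT factors (31.5 ± 6.02) and the accessory subunits (29.2 ± 3.20). Neighbouring groups from V1 downwards differed by less than the larger of their SDs. With protein-coding transcripts alone the order changed, and the membrane proteins led at 23.6 TPM ahead of the lumenal proteins at 20.7 TPM. The members of V0 covered a 1799.6-fold range, and those of the accessory pair a 2.84-fold range.

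**Figure D1:**
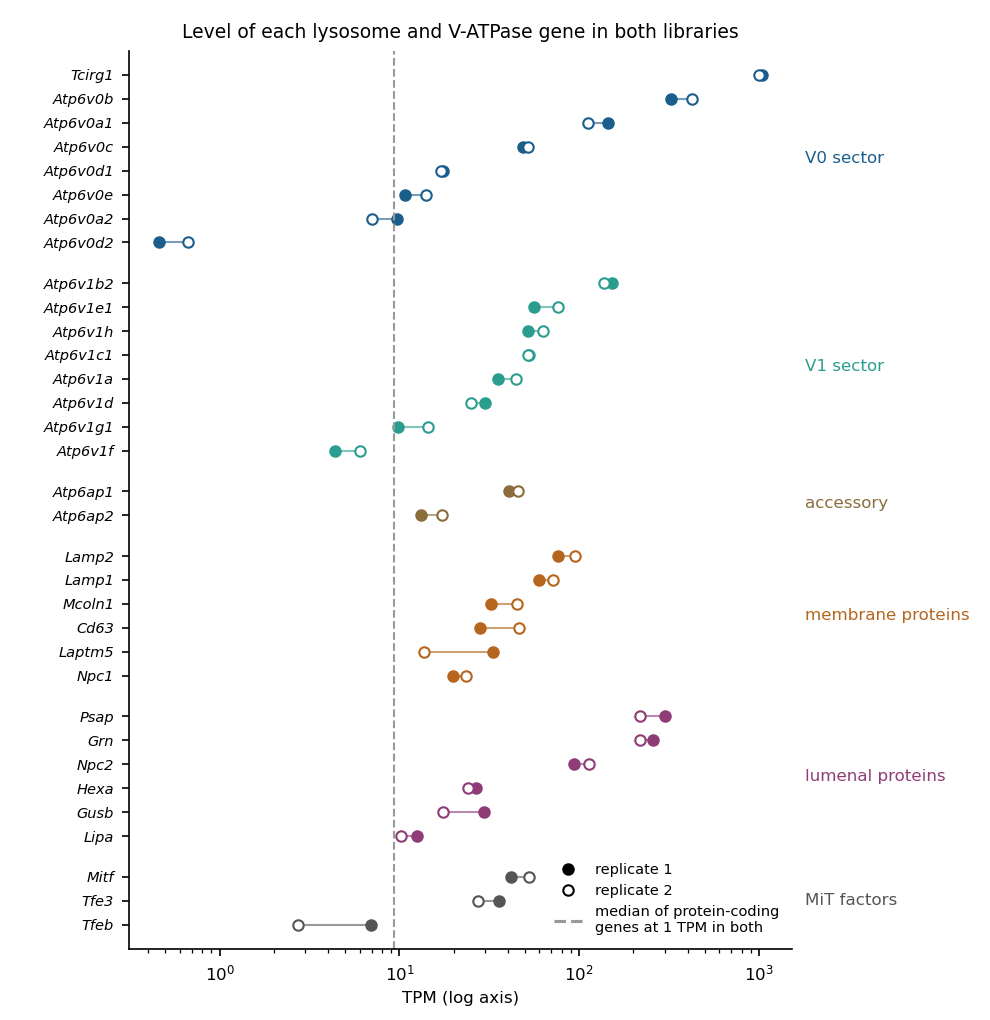
Level of each of the 33 genes in TPM on a log axis, ordered by role, with replicate 1 as filled and replicate 2 as open circles; the dashed line is the median of protein-coding genes at 1 TPM in both libraries (9.37 TPM). Tcirg1 stands at the right end at 1035 and 999 TPM, Atp6v0d2 is the single gene below 1 TPM, and the widest gaps between circles are those of Tfeb and Laptm5.

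In the V0 sector 1 gene dominated. Tcirg1 (chr19:3896050-3907133, minus strand, mm10) encodes the a3 isoform of the large membrane subunit through which protons pass, the form known from lysosomes and from the bone-resorbing membrane of osteoclasts. Its level was 1035 TPM in the first library and 999 TPM in the second, from 26573 and 24397 counts, and ranked 11 among all protein-coding genes by mean TPM. The libraries lay within a few percent of each other for this gene. On its protein-coding transcripts alone the mean level of Tcirg1 was 381 TPM.

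Its paralogs were far lower. Atp6v0a1 (chr11:101009452-101063719, plus strand), the a1 isoform, had 145 and 111 TPM, and Atp6v0a2 (chr5:124628576-124724455, plus strand), the a2 isoform of Golgi and endosomes, had 9.73 and 7.02 TPM. Tcirg1 thus stood 7.13-fold and 8.98-fold above Atp6v0a1 per length in the respective libraries, and Atp6v0a1 stood 14.9-fold and 15.8-fold above Atp6v0a2 (18.7-fold and 31.5-fold on protein-coding transcripts alone). The a4 isoform gene Atp6v0a4, known from kidney, had 0 counts in both libraries by either program. The order a3, a1, a2 was the same in both libraries, with no overlap between neighbours.

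The proton-carrying ring is built from the products of Atp6v0b and Atp6v0c. Atp6v0b (chr4:117884326-117887333, minus strand) had 322 and 422 TPM and ranked 72 among protein-coding genes. Atp6v0c (chr17:24163866-24169702, minus strand), whose product makes up most of the ring, had 48.5 and 51.6 TPM, so that Atp6v0b stood 6.63-fold and 8.17-fold above it. This ratio was 3.89 and 4.45 by the alignment-free program, and 14.2 and 15.2 on protein-coding transcripts alone. The coding level of Atp6v0b includes 108 and 136 TPM on Atp6v0b-206, a transcript of 2 exons at the 5′ end. The full-length coding Atp6v0b-201 had 49.4 and 70.4 TPM, and Atp6v0c-201 had 13.9 and 17.8 TPM. Of the counts of Atp6v0c, 83.2% lay on processed transcripts, a class without an annotated reading frame, and its leading transcript Atp6v0c-205 has 1640 of its 2567 bases outside every coding exon of the gene. The level of Atp6v0c is therefore mainly that of a form not annotated as coding.

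The stalk subunit d, which couples the ring to V1, has a ubiquitous and a tissue-restricted form. Atp6v0d1, the ubiquitous form, had 17.4 and 17.0 TPM, while Atp6v0d2, the form known from osteoclasts, macrophages and kidney, had 0.46 and 0.67 TPM from 18 and 24 counts. The alignment-free program placed Atp6v0d2 at 1.80 and 2.76 TPM, so that the ratio of d1 to d2 was 37.8 and 25.3 by the alignment-based and 19.4 and 11.4 by the alignment-free program. Atp6v0d2 was the lowest of the 33 genes by both. The small subunit gene Atp6v0e had 10.7 and 14.1 TPM, and its paralog Atp6v0e2 had 0 counts in the alignment-based table but 3.34 and 2.28 TPM in the alignment-free one.

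The V1 genes were more even, within a 27.8-fold range. Atp6v1b2 (chr8:69088646-69113711, plus strand), the B subunit of the catalytic head, led with 151 and 137 TPM, and Atp6v1a (chr16:44085402-44139705, minus strand), the A subunit that hydrolyses ATP, had 35.3 and 44.6 TPM. Atp6v1b2 stood 4.29-fold and 3.08-fold above Atp6v1a per length, but 1.22-fold and 1.20-fold on protein-coding transcripts alone.

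The stalk and regulatory subunits of V1 lay mostly between these levels. Atp6v1e1 had 56.0 and 76.6 TPM, Atp6v1h, which regulates the assembled pump, 52.1 and 62.8, and Atp6v1c1 52.5 and 52.1. Atp6v1d, the central rotor shaft, had 29.9 and 25.0 TPM. Atp6v1g1, a peripheral stalk subunit, had 9.78 and 14.5 TPM from 147 and 201 counts, and Atp6v1f, a small rotor subunit, was lowest with 4.36 and 6.01 TPM from 35 and 44 counts. Those 2 genes lay below every other V1 gene in both libraries. The 2 accessory subunit genes, on the X chromosome, had 40.7 and 45.6 TPM (Atp6ap1) and 13.1 and 17.3 TPM (Atp6ap2, also known as the prorenin receptor).

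Among the membrane proteins, the 2 heavily glycosylated coat proteins led. Lamp2 (chrX:38401357-38456454, minus strand) had 75.7 and 94.6 TPM and Lamp1 (chr8:13159161-13175338, plus strand) 59.8 and 71.8 TPM, with Lamp2 above Lamp1 by 1.27-fold and 1.32-fold. The coding isoforms of Lamp2 differ in their last exon and so in their tail. Lamp2-202 took 84.5% and 86.7% of the counts on the 3 coding isoforms, Lamp2-201 took 13.0% and 10.9%, and Lamp2-203 took 2.53% and 2.47%. The order of these isoforms was the same in the alignment-free table, where Lamp2-202 took 75.4% and 79.8%.

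The other membrane proteins lay within a narrower band. Mcoln1, the mucolipin channel that releases lysosomal calcium, had 32.1 and 45.0 TPM, and the tetraspanin gene Cd63 had 27.9 and 46.3 TPM. Npc1, the membrane protein that exports cholesterol, had 19.9 and 23.4 TPM. Laptm5, a lysosomal protein of blood cells, was measured at 33.2 and 13.6 TPM, so that its rank within the group changed from the third in replicate 1 to the last in replicate 2.

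The lumenal group held 2 of the 6 genes at 100 TPM or more in both libraries. Psap (chr10:60277627-60302597, plus strand), the precursor of the saposins that present lipids to hydrolases, had 299.8 and 219 TPM, and Grn (chr11:102430315-102437048, plus strand), the progranulin precursor, had 256 and 217 TPM. Psap lay above Grn within each library, by little in replicate 2. The alignment-free program placed Grn (297 and 268 TPM) above Psap (269 and 191 TPM), so their order depended on the program. Npc2, which hands cholesterol to Npc1, had 93.4 and 113 TPM.

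The enzymes themselves were lower. Gusb, beta-glucuronidase, had 29.7 and 17.5 TPM, Hexa, the alpha chain of beta-hexosaminidase, 26.7 and 24.1, and Lipa, the acid lipase that cleaves cholesteryl esters, 12.5 and 10.2. All 3 enzyme genes lay below Psap, Grn and Npc2 in both libraries, but on protein-coding transcripts alone Hexa (26.7 and 24.1 TPM) lay above Npc2 (13.8 and 18.3 TPM). Psap exceeded Lipa 24.0-fold and 21.4-fold, or 46.4-fold and 39.6-fold on protein-coding transcripts alone. For Psap the programs differed over isoforms: Psap-202 held 69.6% and 76.9% of its counts in the alignment-based table, but 15.3% and 28.6% in the alignment-free table.

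All 3 MiT genes were measured, at unequal levels. Mitf (chr6:97807052-98021349, plus strand) had 41.7 and 52.4 TPM, Tfe3 (chrX:7762560-7775202, plus strand) 35.7 and 27.2 TPM, and Tfeb (chr17:47737030-47792419, plus strand) 6.97 and 2.73 TPM from 94 and 47 counts. Mitf stood 5.99-fold and 19.2-fold above Tfeb, and Tfe3 5.12-fold and 9.96-fold. In the alignment-free table Tfeb had 18.3 and 10.7 TPM and these ratios were 3.55 and 7.22 for Mitf and 1.80 and 2.19 for Tfe3, so the distance depended on the program. On protein-coding transcripts alone Tfe3 had 5.31 and 5.81 TPM and Tfeb 5.91 and 2.26 TPM, so Tfeb was not the lowest of the 3 in replicate 1. Mitf, at 19.4 and 25.0 TPM on this count, stayed above both. The fourth family member, Tfec, a macrophage-enriched gene outside the 33, had 119 and 170 TPM, or 2.85-fold and 3.24-fold the level of Mitf (1.64-fold and 1.91-fold in the alignment-free table).

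The start site of Mitf transcripts was uneven too. The gene has several alternative promoters, of which the one farthest downstream is known from melanocytes. The 3 transcripts of the farthest upstream start held 91.9% and 96.3% of the counts of Mitf in the alignment-based table, and the 3 of the farthest downstream start, 184740 bases away, held 2.31% and 1.47%. In the alignment-free table these shares were 69.7% and 71.7% upstream and 13.4% and 15.2% downstream. The upstream start led in both libraries by both programs. Of the melanocyte genes in the alignment-based table, Tyr and Tyrp1 had 0 counts, Pmel 1 and 0, Mlana 0 and 1, and Dct 7 and 6. In the alignment-free table Dct had 3.19 and 2.50 TPM and Tyr 0.217 and 0.243 TPM.

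E-boxes of the kind that MiT factors bind were looked for in promoters, taken as 250 bases before to 50 bases after each RefSeq start (GRCm38.p6). Of the 33 genes, 26 matched this table; Atp6v0a2, Atp6v0d2, Atp6v1b2, Atp6v1c1, Atp6v1g1, Atp6v1h and Npc1 did not. The letters CACGTG, which read the same on both strands, stood in promoters of 6 of the 26 genes (23.1%), where 8.09% of 27025 genes and 7.15% of 32851 windows held them. The longer TCACGTGA, which contains CACGTG, stood in 4 of 26, against 1.12% of genes, and GTCACGTGAC, the palindrome at the core of the lysosomal CLEAR motif, in 0 of 26, against 0.370%. A match is a run of letters, and binding was not measured here. The 6 genes with CACGTG were Atp6v0b, Atp6v0d1, Atp6v0e, Atp6v1a, Lamp1 and Mcoln1, and 3 of them held more than 1. The stretches before the start of Lamp1, Mcoln1, Atp6v0b and Atp6v1a are shown 5′ to 3′ on the strand of the gene, with CACGTG in capitals, because Lamp1 holds 4 copies (first bases at -61, -45, -28 and -15 from the start) and the other three show the motif in a channel, a V0 and a V1 gene.
Lamp1, chr8:13159086-13159160, plus strand: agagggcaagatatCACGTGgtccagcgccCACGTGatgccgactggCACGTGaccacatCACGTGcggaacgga
Mcoln1, chr8:3500462-3500491, plus strand: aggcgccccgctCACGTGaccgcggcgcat
Atp6v0b, chr4:117887348-117887377, minus strand: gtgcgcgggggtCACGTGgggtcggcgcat
Atp6v1a, chr16:44139373-44139402, minus strand: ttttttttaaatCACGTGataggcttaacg
The E-box genes were not of 1 level: they ranged from Atp6v0e at 12.4 ± 2.38 TPM to Atp6v0b at 372 ± 70.5 TPM, both members of V0.

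Much of the RNA of these genes lay on transcripts annotated as retaining an intron. Pooled over the 33 genes, 31.3% ± 1.36 of counts lay on this class (30.4% in replicate 1, 32.3% in replicate 2), 61.6% ± 0.622 on protein-coding transcripts, 6.02% ± 0.436 on processed transcripts and 1.01% ± 0.305 on targets of nonsense-mediated decay. Over 6743 protein-coding genes with a mean of 100 counts or more, the retained-intron share was 25.1% ± 0.644. Tcirg1 weighs heavily in the pooled value: without it the share was 28.4% ± 2.21. The groups differed widely. V1 had 56.5% ± 1.42 of its counts on retained-intron transcripts. The MiT factors had 54.0% ± 7.88 with Tfe3 and 23.7% ± 1.23 without it. They were followed by the accessory subunits at 33.3% ± 1.15, V0 at 29.5% ± 0.248, the membrane proteins at 29.0% ± 2.38 and the lumenal proteins at 17.7% ± 2.90.

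Gene by gene, 24 of the 33 have an annotated transcript of this class, and in 6 of them it held over 50% of the counts. Of the 24, 23 have a mean of 100 counts or more, Tfeb being the exception. Among all protein-coding genes with such a transcript and that mean, 27.5% passed the same mark, so 6 of 23 is near the background. The 6 were Tfe3 (90.4% ± 1.47), Atp6v1h (84.5% ± 0.858), Atp6v1e1 (75.5% ± 1.28), Npc2 (72.6% ± 0.982), Atp6v1c1 (66.9% ± 0.766) and Cd63 (61.6% ± 1.47). In each of these the leading transcript by counts was itself of the retained-intron class. By TPM, which divides by transcript length, 5 of the 6 kept a share over 50%, and Cd63 did not, at 32.5%. For Tfe3 the libraries gave 91.4% (95% Wilson interval from 90.1 to 92.6) and 89.3% (from 87.5 to 90.9), so counting error is small beside the distance to the pooled share. The shares of these 6 genes in the alignment-free table lay between 62.6% (Cd63) and 87.7% (Tfe3).

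**Figure D2:**
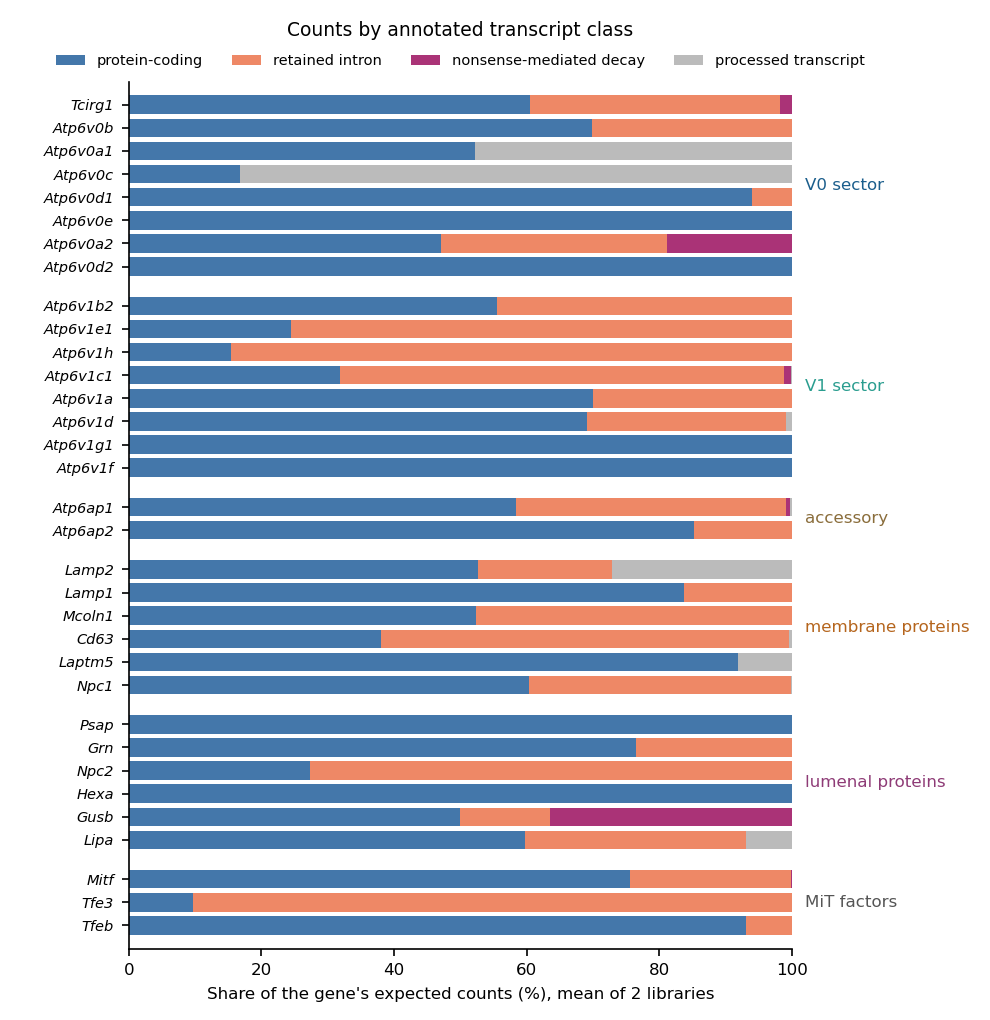
Share of each gene's expected counts (percent, mean of both libraries) on transcripts of 4 annotated classes, stacked to 100, with genes ordered by role. Retained-intron transcripts (orange) fill over 50% of the bar in Tfe3, Atp6v1h, Atp6v1e1, Npc2, Atp6v1c1 and Cd63, while Psap, Hexa, Atp6v0d2, Atp6v0e, Atp6v1f and Atp6v1g1 show protein-coding transcripts alone and Atp6v0c shows mainly processed transcripts (grey).

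The introns in question are placed by comparing the leading retained-intron transcript of each of these genes with its leading coding transcript, and the exon-intron borders that such a transcript runs through are shown as 30 bases of GENCODE M21 transcript sequence in mm10, 5′ to 3′, with the first or last 2 bases of the intron in capitals. At a donor (GT) the 10 bases before the capitals are exon; at an acceptor (AG) the 10 bases after them are exon. Introns are numbered from the 5′ end of the coding transcript.
Atp6v1c1 intron 6 donor, chr15:38679402-38679431, plus strand: gaaagaacgcGTaagtctttgtggatgcta
Atp6v1c1 intron 11 donor, chr15:38689213-38689242, plus strand: ctgttttaagGTaagaaatttatggagaaa
Atp6v1h intron 4 donor, chr1:5093443-5093472, plus strand: tatgctgcagGTgagtgtgatatactaacc
Atp6v1e1 intron 6 acceptor, chr6:120801128-120801157, minus strand: tgcttcccccccgcccccAGgccgcagtac
Npc2 intron 2 acceptor, chr12:84760883-84760912, minus strand: ctgactccctgtcttcctAGgcactcagtc
Cd63 intron 2 donor, chr10:128910462-128910491, plus strand: ggccttctgcGTgagtagtgcggggagagc
Tfe3 intron 4 donor, chrX:7769538-7769567, plus strand: gagatctccgGTaagtgttagggacttggc
Tfe3 intron 6 donor, chrX:7771061-7771090, plus strand: ccaatgatccGTgagtctgggctggggacc
Every one of these borders carries the GT or AG that begins or ends the common class of introns. The files give counts per transcript and not per border, so no reads across a single border are counted here.

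These transcripts keep their introns in different ways. Atp6v1c1-205 holds introns 6 and 11 whole, of 1655 and 1310 bases, and took 61.3% of the counts of its gene. Atp6v1h-206 holds intron 4 whole (2162 bases) and 1201 of the 6096 bases of intron 12. Cd63-205 is a single exon that holds all 7 introns, 2054 bases in sum, of which intron 2 has 980. Tfe3-208 holds introns 4 and 6 whole, of 1226 and 1378 bases. Atp6v1e1-203 and Npc2-203 begin inside an intron instead. They hold 1285 of the 2170 bases of intron 6 and 1648 of the 4384 bases of intron 2, respectively. Outside every coding exon of its gene Atp6v1e1-203 has 2224 bases, against these 1285. For Tfe3-208 the numbers are 3459 and, in its introns, 2604. The counts of these 2 transcripts therefore need not come from the introns named.

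Noncoding forms of other classes were prominent in a few genes. In Atp6v0a1, which has no annotated retained-intron transcript, processed transcripts held 47.7% ± 4.29 of counts. In Lamp2 they held 27.1%, through Lamp2-205, a transcript of 2 exons at the 5′ end of the gene with 93.7% of its 2633 bases outside the coding exons. In Gusb, transcripts annotated for nonsense-mediated decay held 36.4%, and its leading transcript Gusb-206, of that class, has 0 bases outside the coding exons, so its reads differ from those of coding transcripts in their junctions alone. Where reads fell in an intron that no annotated transcript holds, they do not enter these shares.

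Between the libraries, none of the 33 genes differed by 2-fold in counts scaled by the trimmed mean of M-values (TMM). Of 13238 genes of all classes, 4.02% were at least 2-fold higher in replicate 2 and 3.23% were at least 2-fold lower. Protein-coding genes at 1 TPM in both libraries are the closer background. Of 8758 such genes with a ratio, 207 were higher and 189 lower by this mark, so none of 33 is near that share. With 1 library on each side these ratios have no replicate check, and their 95% intervals cover counting error only. The log2 ratios of replicate 2 over replicate 1 ran from -0.87 for Tfeb (interval -1.41 to -0.35) to 0.78 for Cd63 (0.63 to 0.92). Gusb (-0.79, interval -0.96 to -0.62), Laptm5 (-0.75, -0.98 to -0.53) and Atp6v0a2 (-0.75, -0.98 to -0.52) followed Tfeb at the lower end. For Tfeb (6.97 and 2.73 TPM) and Laptm5 (33.2 and 13.6 TPM) the TPM values stood farther apart than the counts did, and past 2-fold. That none of the 33 passed 2-fold thus holds for scaled counts and not for TPM. The share of all genes past 2-fold by TPM was not taken. In bulk RNA, fewer cells of a type and less RNA per cell cannot be told apart.

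Over all genes, 6587 of 13238 were higher in replicate 2 under TMM. All 8 V1 genes were higher in replicate 2 under TMM, and 6 of them were so under each of 5 scalings and programs, while Atp6v1b2 and Atp6v1d, at 0.08 and 0.03, changed side. In the lumenal group 5 of 6 genes (Psap, Grn, Gusb, Hexa and Lipa) were lower in replicate 2 and Npc2 was higher, under all 5. The membrane proteins other than Laptm5 were higher in replicate 2 under TMM, with Npc1 at 0.10 changing side, and V0 was divided, with Tcirg1, Atp6v0c and Atp6v0d1 changing side. Scaling to the protein-coding library shifted the median ratio of all genes by -0.10, the largest shift of those tried. Each scaling shifts all genes alike, so ratios well beyond this shift keep their side by construction. The alignment-free counts come from the same libraries, so a side kept under all 5 is no independent check of it. The other lysosomal hydrolases, described last, had 16 genes higher and 18 lower, and the other membrane proteins 10 higher and 16 lower, so these directions were not those of the wider lists, and no test of role was made. Beside these directions, the summed level of the macrophage markers was lower in replicate 2, with the largest fall in Adgre1 (497 and 193 TPM). Itgam (30.8 and 9.73), Lyz2 (154 and 82), Csf1r (123 and 81.0), Fcgr1 (16.85 and 12.89) and Spi1 (50.9 and 42.1) were lower too. Cd68 and Mertk were nearly level, and only Cd14 (52.1 and 82.4) and Msr1 (251 and 307) were higher. The RNA input differed too, and the part of either in the ratios was not tested.

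**Figure D3:**
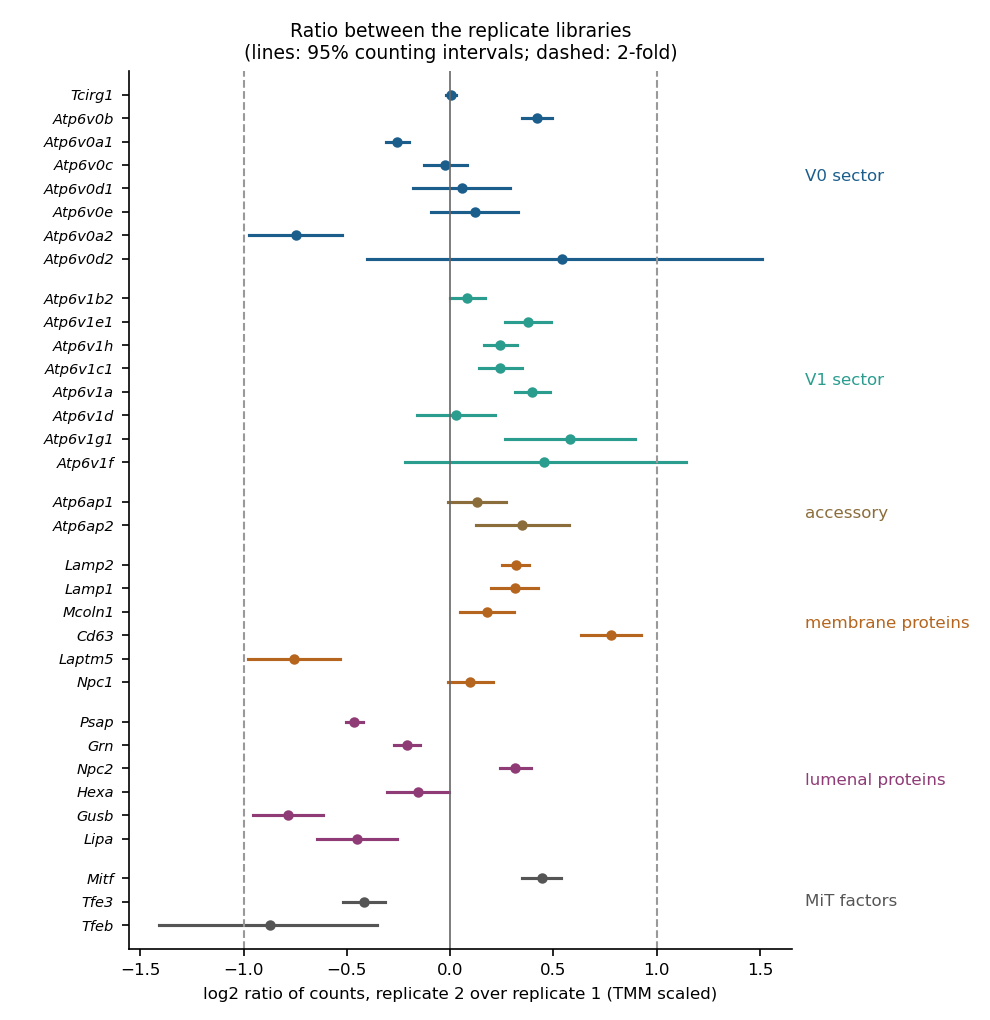
Log2 ratio of counts of replicate 2 over replicate 1 after TMM scaling for each gene (points), with 95% counting intervals (lines) and dashed lines at 2-fold in either direction. All points lie between the dashed lines, from -0.87 (Tfeb) to 0.78 (Cd63); V1 points lie at or right of 0 and all lumenal points but Npc2 lie left of it.

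The level of a gene also depended on the program that assigned its reads. The ratio of alignment-free to alignment-based TPM had a median of 1.32 over the 33 genes and 1.27 over protein-coding genes at 1 TPM in both libraries, and ran from 0.738 for Cd63 to 4.03 for Atp6v0d2, with Tfeb next at 2.99 and Atp6v0d1 at 1.93. The order of the genes was largely common to both: Spearman's rho across the 33 genes, which share the same libraries and reads, was 0.967. In the alignment-based table the posterior SD of the count was at most 0.444% of the count for any of the 33. This SD covers only reads that the program counted. The totals were 18445009 and 17686824 counts in that table, and 32830001 and 30388561 in the alignment-free one. The part of shared reads in the gap between programs was not tested.

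**Figure D4:**
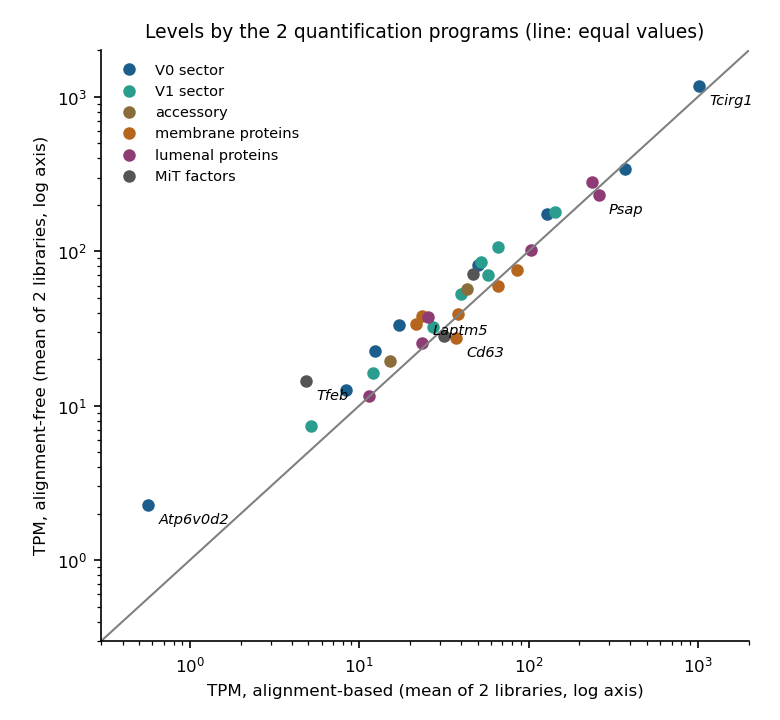
Alignment-free against alignment-based TPM (means of both libraries, log axes) for the 33 genes, coloured by role, with a line of equal values. Most points lie a little above the line, the farthest above it are Atp6v0d2 and Tfeb, and Cd63 lies farthest below.

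Some of these genes overlap a neighbour on the opposite strand, and without a known strand setting such reads cannot be told apart. Hexa shares 255 of its 1996 exon bases with Tmem202 (13.0 and 15.2 counts), Lamp1 shares 249 of 2675 with Grtp1 (364 and 455 counts), and Npc1 shares 511 of 11317 with Rmc1 (640 and 607 counts). The shared part was at most 12.8% of the exon bases for these 3 genes. Atp6v0b (11.8%) and Atp6v0a2 (9.86%) share exon bases too, with antisense genes that had 0 counts. Smaller parts are shared by Grn (1.96%), Atp6v1h (1.30%) and Atp6v1e1 (0.779%).

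By alignment-based TPM over all transcripts, the other genes of the lysosome, in lists of related function, were lower as groups and wide in range. Of 7 other V-ATPase isoform genes, 1 reached 1 TPM in both libraries: Atp6v1g2, at 3.71 and 3.88 TPM, where Atp6v1g1 had 2.64 and 3.74 times as much by this program and 1.56 and 1.61 times as much by the alignment-free one. Atp6v0a4, Atp6v0e2, Atp6v1e2 and Atp6v1g3 had 0 counts. Of 12 genes of V-ATPase assembly and regulation, 10 reached 1 TPM, with a median of 8.35 ± 0.152 TPM, from Atp6ap1l at 0 to Dmxl1, a subunit of the complex that reassembles the pump, at 73.2 and 67.5 TPM. In this list Rogdi, with 44 and 15 counts, was the single gene past 2-fold between libraries (log2 ratio -1.43).

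Of 34 other lysosomal hydrolases and cofactors, 29 reached 1 TPM, with a median of 7.0 ± 0.272 TPM. The sphingomyelinase gene Smpd1 was lowest at 0.38 and 0.45 TPM. Of 29 other membrane proteins and transporters, 26 reached 1 TPM, with a median of 11.5 ± 0.0990 TPM. The highest was Clcn7, the chloride-proton exchanger that works beside the V-ATPase, at 381 and 411 TPM, and Lamp3 had 0 counts.

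The paralogs of Mcoln1 differed from it in opposite directions. Mcoln2 had 257 and 327 TPM, 8.01-fold and 7.26-fold above Mcoln1, and Mcoln3 had 3.10 and 5.98 TPM. Of 9 genes of mannose 6-phosphate and sortilin sorting, which deliver hydrolases to the lysosome, 8 reached 1 TPM (median 12.2 ± 6.34 TPM), from Sort1 at 0.34 and 0.16 TPM to M6pr at 41.1 and 47.0 TPM. The list of the Ragulator, the Rag GTPases and mTORC1, the nutrient sensors that act on the MiT factors, held 18 genes. The MiT family member Tfec is among these 18 and enters the values that follow. Of the 18, 15 reached 1 TPM (median 16.9 ± 0.527 TPM), from Rragb at 0.26 and 0.11 TPM to Fnip2 at 165 and 181 TPM. By alignment-based TPM over all transcripts, the medians of all 6 lists lay below the lowest of the group medians of the 33 genes. This did not carry over to protein-coding transcripts alone. There the MiT factors had a median of 5.56 TPM, and Gnptab, the middle gene of the sorting list, had 9.37 and 5.01 TPM.

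**Figure D5:**
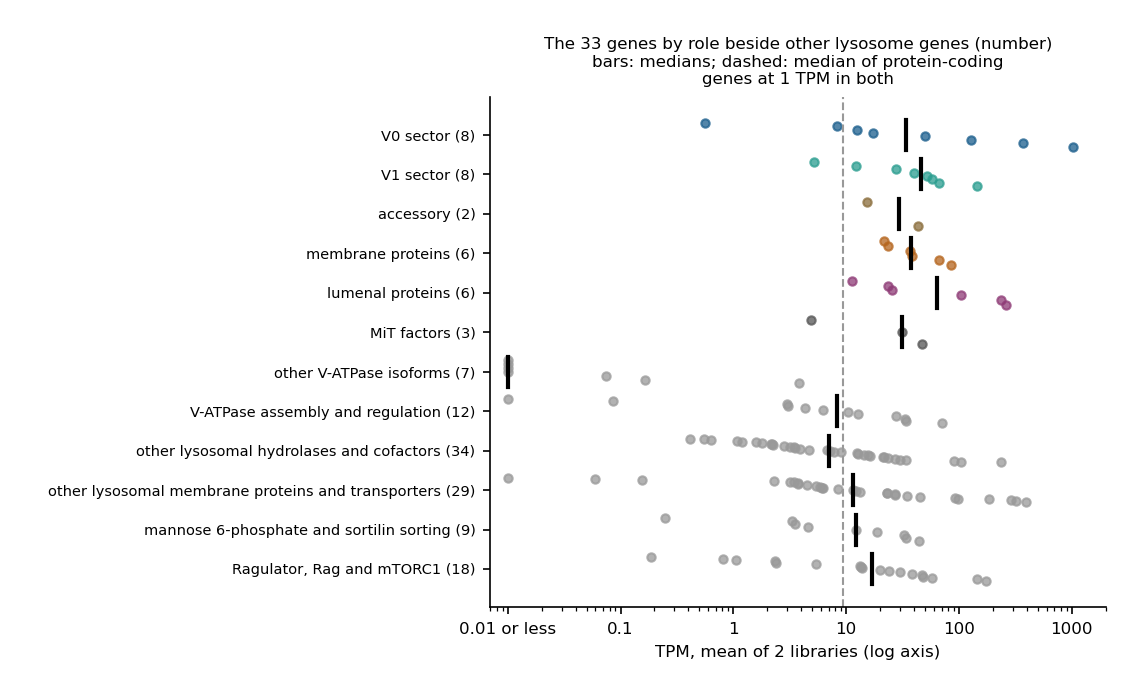
Mean TPM of both libraries on a log axis for each gene of the 6 role groups (coloured) and of 6 lists of other lysosome genes (grey), with medians as black bars and the median of protein-coding genes at 1 TPM in both libraries (9.37 TPM) as a dashed line; values at or below 0.01 are drawn at 0.01. The role medians lie between 29.2 and 64.3 TPM and the medians of the other lists between 0 and 16.9 TPM.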

How the data were processed

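RNA of the chromatin fraction was measured in 2 libraries of 1 group. The deposited expected counts and the deposited TPM per gene and transcript came from alignments to mm10 with GENCODE M21, per the submitters' description files, and carry RSEM-style column names, per the file headers. The authors scaled TPM by effective length to a fixed sum over all entries. The deposited estimated counts and TPM of a second transcript table were made without an alignment, and have kallisto-style column names, per the file headers, and were summed per gene. Posterior SDs of counts were deposited by the authors. Program versions were not given in the sources used here, nor was the strand setting of the counting. Entries that name no annotated gene, 0.305% and 0.262% of counts, were left out of library sizes and ratios.

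From these values, levels, medians, shares of counts by transcript class and log2 ratios between libraries were computed (edgeR 4.0.16 for TMM on rounded counts, minimum 10 counts per library and gene; DESeq2 1.42.0 for size factors; pandas 2.3.3, scipy 1.17.1). No test was made, since there is 1 group. Errors are SDs (n = 2), Wilson intervals are at 95% and, like the intervals of ratios, cover counting error only. Of the annotated genes, 86 have no transcript in the alignment-free table. Class shares were taken for all 33 genes, and for the background over genes with a mean of 100 counts or more. The ratio step was tested on simulated data. Lists of other lysosome genes matched 109 of 109 symbols; of each list the highest and lowest gene and paralogs of the 33 genes are named, Rogdi was added after its values were seen, and some genes that this rule names are not reported here. The 33 genes, the lists and the rules were chosen with earlier results of these data known. Promoters are from RefSeq (GRCm38.p6), gene models and transcripts from GENCODE M21.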

Additional observations from a re-analysis of the deposited data

How the results depend on the processing

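Of the group results under other settings, 39 values stayed within the spread between replicates or within 1.5 times a count, and 22 moved. At a level of 100 TPM in place of 1 TPM, 6 of the genes counted as measured in both libraries. With TPM scaled to protein-coding genes alone, the median was 142 TPM over all 33 genes, 125 for V0, 171 for V1, 108 for the accessory subunits, 139 for the membrane proteins, 238 for the lumenal proteins and 117 for the MiT factors. With protein-coding transcripts alone these medians were 16.3, 14.5, 19.2, 11.8, 23.6, 20.7 and 5.56 TPM. By the alignment-free program they were 57.4 TPM for V0, 61.3 for V1, 38.5 for the accessory subunits and 69.4 for the lumenal proteins. The retained-intron share over all 33 genes was 46.0% by TPM and 32.8% by alignment-free counts. Over the 6743 protein-coding genes with a mean of 100 counts or more it was 38.1% and 25.8%. By TPM, 13 of the 24 genes with such a transcript passed 50%, Cd63 not among them. The share of all genes past 50% by TPM was not taken, so this number has no background beside it. For single genes, 250 values stayed and 80 moved; the 6 genes whose ratio between libraries changed side are those named with the ratios. Leaving out either replicate moved no group result. For levels this was largely set in advance, since the yardstick is the spread between these same libraries. It is thus no measure of stability, and the values counted as staying include such cases. No paired analysis was possible because there is 1 group. Depth limits Atp6v0d2, Atp6v1f and Tfeb most, each with under 100 counts per library.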

Other observations

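Across the 33 genes, TPM had a Spearman's rho of -0.218 with the length of the gene from its first to its last annotated base, where 8821 protein-coding genes at 1 TPM in both libraries had 0.185; these are descriptions across genes, which share libraries and are not replicates. In Atp6v0b, a transcript of 2 exons at the 5′ end of the gene, Atp6v0b-206, held 35.1% and 34.0% of counts, more than the full-length coding Atp6v0b-201 at 23.1% and 24.9%. In Tcirg1, 14 annotated transcripts shared the counts, 60.6% ± 1.05 of them on 4 coding and 37.6% ± 0.439 on 7 retained-intron transcripts, led by Tcirg1-201 at 39.8% and 36.7%.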
